A study of Mus musculus with 12 samples.

Results

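The 40 genes described here encode ribosome biogenesis and nucleolar factors, the proteins that transcribe, modify, cut and package ribosomal RNA. They were taken by gene symbol, with no use of their levels, from a table of 35275 genes measured in mouse kidney. They comprise 5 genes of RNA polymerase I and its factors, 4 of the box C/D and U3 small nucleolar ribonucleoprotein (snoRNP) particles, 4 of the box H/ACA particles, 4 abundant nucleolar proteins, 7 of the small subunit processome, 4 of late 40S maturation and 12 of 60S assembly. Each symbol had 1 row in the table, and all 40 passed the filter on low counts in each of the 3 comparisons.

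Kidney poly(A) libraries came from 12 C57BL/6J mice aged 6 months, 4 per group, and each group held 2 females and 2 males. WT mice carried no engineered allele. RC/RC mice were homozygous for the RC allele of Pkd1, a hypomorphic knock-in that gives slowly progressive polycystic kidney disease. RC/RC:Casp1KO mice carried the same RC/RC genotype and were in addition homozygous for a TALEN-made deletion in Casp1, which encodes caspase-1, the protease of the inflammasome. The deletion is germline, so that every cell type lacks the intact gene, and the line rests on 1 deletion allele. A mouse with Casp1KO on a WT background was not part of the design. Columns are named by group and not by sex, and sex was not a term in the tests. Reads counted per mouse ranged from 20556335 to 22656309 in WT, from 18019819 to 24284831 in RC/RC and from 18738755 to 24869454 in RC/RC:Casp1KO, and the 40 genes together held 27946 to 41376 reads in each mouse.

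Ribosomal RNA is copied in the nucleolus by RNA polymerase I as a long precursor, which snoRNP particles modify and the small subunit processome folds and cuts. The pieces are then built into 40S and 60S particles by assembly factors that are released as each particle matures and leaves the nucleus. Many of the genes are known targets of MYC, a transcription factor that binds the E-box, and ribosome production is known to be high in growing and dividing cells.

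Levels in this section are CPM, read counts scaled to a common library size with TMM factors, and only FPKM, which also divides by gene length, is used to compare one gene with another. Fold changes are on the log2 scale with their standard error (SE), from edgeR's quasi-likelihood test across all genes with Benjamini-Hochberg adjustment, and a gene was called at an adjusted p under 0.05. Replicates are separate mice, and their numbers are only names. In bulk kidney tissue, fewer cells of a type and less RNA per cell cannot be told apart.

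The genotypes were checked first. Casp1 stood at 2.05, 1.29, 1.31 and 1.41 CPM in WT, at 3.33, 3.87, 4.24 and 2.62 CPM in RC/RC, and at 0.382, 0.667, 0.665 and 1.06 CPM in RC/RC:Casp1KO. Every RC/RC:Casp1KO mouse was below every mouse of the other groups, and Casp1 fell by 2.35 ± 0.32 (SE) on the log2 scale against RC/RC (edgeR adjusted p = 0.00514). Pkd1, whose RC allele is a point mutation and leaves a transcript to count, averaged 53.0, 55.2 and 71.6 CPM in WT, RC/RC and RC/RC:Casp1KO, and passed no test. The kidney label was borne out by Slc34a1, the proximal tubule phosphate transporter, with a mean of 5849.6 CPM in WT, and by Umod, the uromodulin gene of the loop of Henle, at 3948 CPM.

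RefSeq promoter windows of 300 bases, 250 before and 50 after a transcription start, were at hand for 36 of the 40 genes. They were searched on both strands for the E-box CACGTG, which reads the same on both strands, for the ETS-type motif CCGGAAG, and for the NRF1-type motif GCATGCGC. The E-box stood in the windows of 8 of the 36 genes (22.2%) and in those of 8.09% of all 27025 genes. The ETS-type motif stood in 12 (33.3%) against 9.93% of all genes, and the NRF1-type motif in 2 (5.56%) against 3.05%. A match describes letters in a window and is not a binding site. The windows of the 2 genes called in a comparison, Noc2l and Ebna1bp2, and of a pair with the E-box, Tsr1 and Utp20, are given 5′ to 3′ on the gene's strand in GRCm38.p6, with every match to the E-box or the ETS-type motif in capitals. Noc2l (chr4:156235765-156236064, plus strand) and Ebna1bp2 (chr4:118620549-118620848, plus strand) hold ETS-type matches close to the start, Tsr1 (chr11:74897830-74898129, plus strand) holds one match to each, and Utp20 (chr10:88826765-88827064, minus strand) holds an E-box. Tsr1 and Utp20 were chosen for log2 fold changes above 0 in RC/RC:Casp1KO against RC/RC, which did not pass the test, and the other 6 genes with the E-box (Ltv1, Nle1, Nop2, Pes1, Rrn3 and Wdr43) had values there from -0.28 to -0.01.
Noc2l: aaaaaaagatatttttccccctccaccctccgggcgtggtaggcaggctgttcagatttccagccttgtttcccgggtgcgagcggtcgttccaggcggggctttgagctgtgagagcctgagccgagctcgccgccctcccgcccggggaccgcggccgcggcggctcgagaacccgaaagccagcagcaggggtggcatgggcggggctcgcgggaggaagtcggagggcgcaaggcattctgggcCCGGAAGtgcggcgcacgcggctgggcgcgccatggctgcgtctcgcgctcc
Ebna1bp2: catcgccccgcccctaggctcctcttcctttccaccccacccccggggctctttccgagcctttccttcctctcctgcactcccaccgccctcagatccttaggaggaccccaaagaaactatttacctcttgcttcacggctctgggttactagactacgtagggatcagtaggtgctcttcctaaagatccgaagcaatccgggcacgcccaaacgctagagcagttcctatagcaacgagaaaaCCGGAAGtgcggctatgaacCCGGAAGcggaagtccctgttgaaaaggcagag
Tsr1: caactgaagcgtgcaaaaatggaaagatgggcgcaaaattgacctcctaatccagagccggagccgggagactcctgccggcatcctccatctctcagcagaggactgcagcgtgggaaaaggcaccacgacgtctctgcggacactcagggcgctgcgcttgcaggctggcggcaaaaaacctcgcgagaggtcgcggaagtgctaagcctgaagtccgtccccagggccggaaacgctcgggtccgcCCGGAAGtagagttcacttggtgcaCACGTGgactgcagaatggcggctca
Utp20: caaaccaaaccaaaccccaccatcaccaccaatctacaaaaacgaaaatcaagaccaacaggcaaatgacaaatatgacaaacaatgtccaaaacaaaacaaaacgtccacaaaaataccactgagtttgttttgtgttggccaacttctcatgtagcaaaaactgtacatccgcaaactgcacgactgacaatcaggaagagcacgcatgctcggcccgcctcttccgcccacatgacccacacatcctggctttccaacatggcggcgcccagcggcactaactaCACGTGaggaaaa

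By the deposited gene lengths, Npm1 was the highest of the 40 genes, with a mean of 102 FPKM over the 12 mice. Its product, nucleophosmin, is a nucleolar chaperone for histones and ribosomal proteins. Nop10 (54.5 FPKM) and Nhp2 (39.2 FPKM), small core proteins of the H/ACA particles, came next, and then Ncl (33.9 FPKM), Fbl (31.5 FPKM), Ubtf (30.5 FPKM) and Polr1c (27.3 FPKM). The other 33 genes had means between 1.58 FPKM, for Wdr12, and 14.7 FPKM, for Nop16. In the plot of FPKM by gene, the spread between mice of one group covers several neighbours in this order, so that the order from Nop16 down is not resolved for adjacent genes. The order also depends on the gene length, 1633 bases for Npm1, 8202 for Ncl and 10012 for Wdr12. These lengths were not checked against the transcripts present, and a shorter one would raise the FPKM. In CPM, which does not use length, Ncl averaged 278 and Npm1 165.

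**Figure D1:**
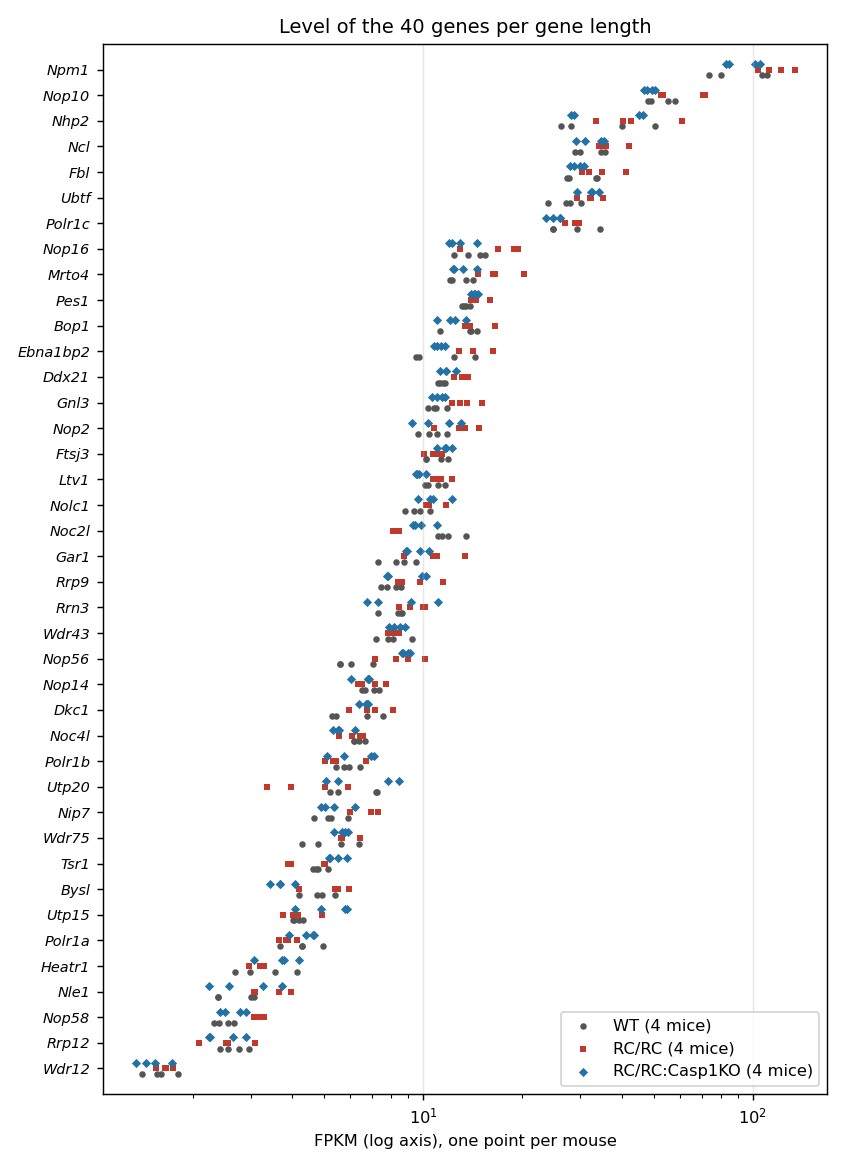
FPKM (log axis) of the 40 genes from the deposited gene lengths, ordered by mean. Each point is 1 mouse, with colour and marker for the group (4 mice each). Npm1, Nop10 and Nhp2 stand at the top, at means of 102, 54.5 and 39.2 FPKM, and Wdr12 at the bottom, at 1.58 FPKM.

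Across all 40 genes the group means differed little, while the overlap of single mice depended on the scaling. The mean log2 CPM of the 40 genes was 4.82 ± 0.04 (SD, n = 4) in WT, 4.85 ± 0.09 in RC/RC and 4.71 ± 0.05 in RC/RC:Casp1KO. By mouse it was 4.84, 4.82, 4.84 and 4.76 in WT, 4.73, 4.83, 4.94 and 4.89 in RC/RC, and 4.73, 4.66, 4.77 and 4.70 in RC/RC:Casp1KO. With these TMM factors WT overlapped RC/RC, and RC/RC 1 lay within the range of RC/RC:Casp1KO while the other RC/RC mice lay above it. With libraries scaled by their total alone, the RC/RC mice were at 4.844, 4.896, 4.892 and 4.833. All of them then lay above the highest WT mouse (4.797) and the highest RC/RC:Casp1KO mouse (4.808). The map of single mice shows that most shifts against WT were small, with Noc2l low in all 4 RC/RC mice and Nop56 high in all 8 mice with the RC/RC genotype.

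**Figure D2:**
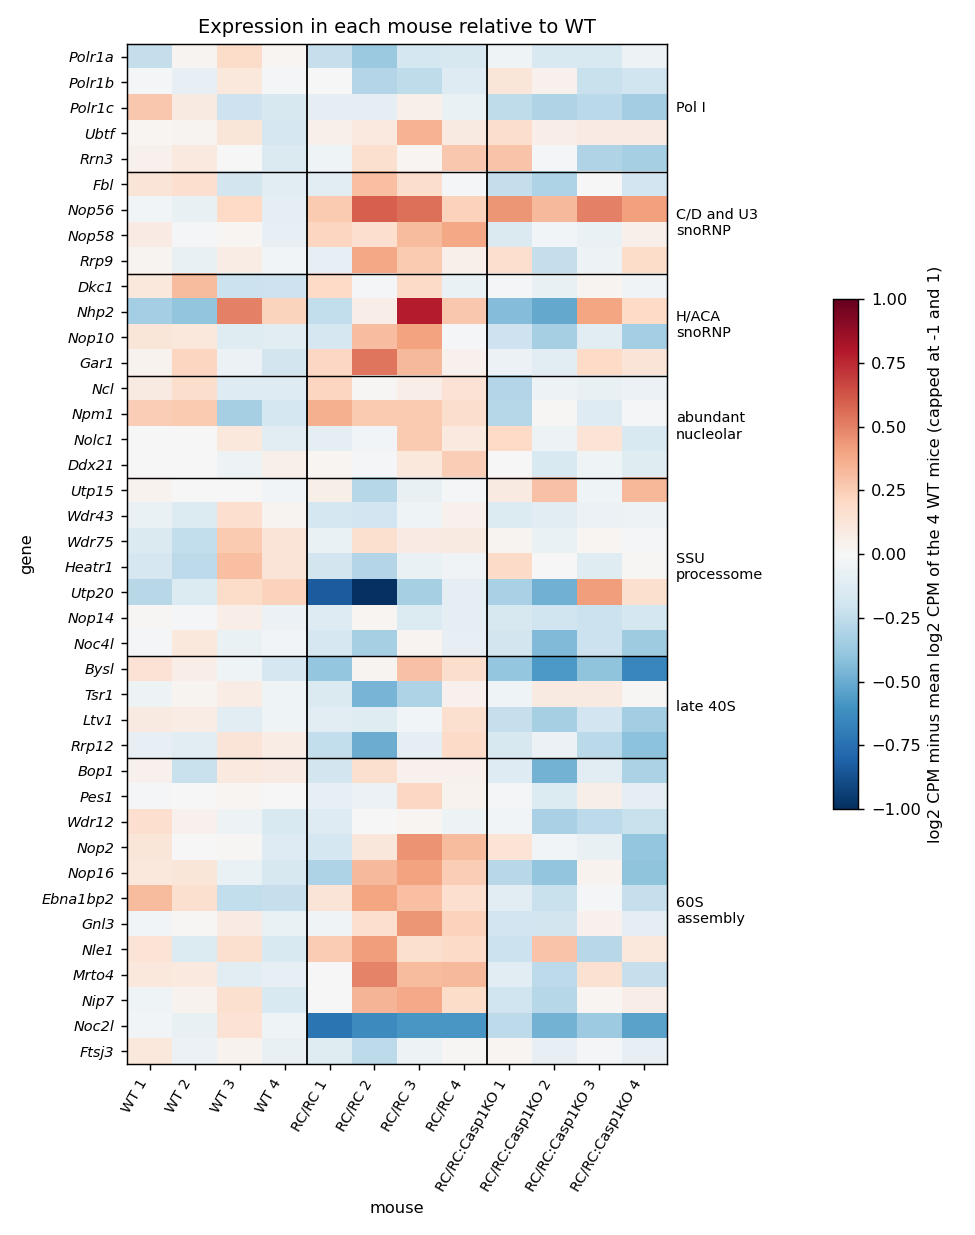
Each cell is the log2 CPM of 1 gene (rows, grouped by role) in 1 mouse (columns) minus the mean log2 CPM of the 4 WT mice, with colours capped at -1 and 1. Noc2l is low in every RC/RC mouse, Bysl in every RC/RC:Casp1KO mouse, and RC/RC 1 looks paler or lower than the other RC/RC mice for many 60S assembly genes.

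The first comparison asked how the genes differ in cystic kidneys. In RC/RC against WT, none of the 40 genes was called higher by edgeR, where 9.76% of the 15243 genes tested were, and 1 (Noc2l) was called lower, where 3.18% were. At an unadjusted p under 0.05, 3 genes were higher (Nop56, Mrto4 and Nop58; 17.3% of all genes) and 2 lower (Utp20 and Noc2l; 11.97% of all genes). DESeq2 called 1 higher (Nop56; 10.9% of all genes) and 1 lower (Noc2l; 5.59%). All 4 mice of one group lay above all 4 of the other for 3 genes higher in RC/RC (Nop56, Nop58 and Nle1; 12.6% of all genes) and 1 lower (Noc2l; 7.05%). These shares were below the background in either direction. The median log2 fold change of the 40 genes was 0.06, against -0.02 for all genes tested, with 25 genes above 0 and 15 below, and it became -0.03 once the gene length trend was removed, where that of all genes was -0.12.

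The second comparison asked what loss of Casp1 did in cystic kidneys. In RC/RC:Casp1KO against RC/RC, none of the 40 genes was called higher by edgeR (7.23% of the 15428 genes tested) and 1 (Ebna1bp2) was called lower (4.41%). At an unadjusted p under 0.05, 0 were higher (15.3% of all genes) and 13 lower (32.5%, against 16.4% of all genes). DESeq2 called 0 higher (10% of all genes) and 4 lower (Npm1, Ebna1bp2, Nop58 and Bysl; 8.12%). The groups did not overlap for 2 genes that were higher (Polr1a and Noc2l; 11.8% of all genes) and for 8 that were lower in RC/RC:Casp1KO (Ncl, Nop14, Npm1, Ebna1bp2, Nop58, Polr1c, Bysl and Ltv1; 8.65%). The median log2 fold change was -0.18, against -0.03 for all genes tested, and 32 of the 40 genes were below 0. It stayed between -0.22 and -0.13 in the 8 other settings and the 8 fits that left out 1 mouse. Those calls hung on single mice. Without RC/RC 1, edgeR called 8 of the 40 genes lower (Bysl, Ebna1bp2, Gnl3, Mrto4, Nip7, Nop10, Nop16 and Nop58) where 8.3% of all genes tested were called lower. Without RC/RC 2, RC/RC 3 or any 1 of the 4 RC/RC:Casp1KO mice it called none of them, where 0.369% to 4.42% of all genes were called lower.

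In the third comparison, RC/RC:Casp1KO against WT, edgeR called none of the 40 genes in either direction, where 1.13% of the 15346 genes tested were called higher and 0.893% lower. At an unadjusted p under 0.05, 1 gene was higher (Nop56; 11.8% of all genes) and 8 were lower (Nop14, Bop1, Noc4l, Polr1c, Bysl, Ltv1, Noc2l and Nop10; 9.99%). DESeq2 called 1 higher (Nop56; 4.44%) and 2 lower (Bysl and Noc2l; 3.28%). The groups did not overlap for 1 gene higher (Nop56; 7.41%) and 6 lower (Nop14, Noc4l, Polr1c, Bysl, Ltv1 and Noc2l; 6.5%). The median log2 fold change was -0.09, against 0.01 for all genes tested, and 0.04 against 0.14 when libraries were scaled by their total alone. That scaling also brought the log2 fold changes against WT given below for Noc4l, Nop14, Ltv1 and Polr1c to -0.17, -0.06, -0.14 and -0.17. RC/RC against WT and RC/RC:Casp1KO against RC/RC share the RC/RC mice, so their signs are not independent.

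**Figure D3:**
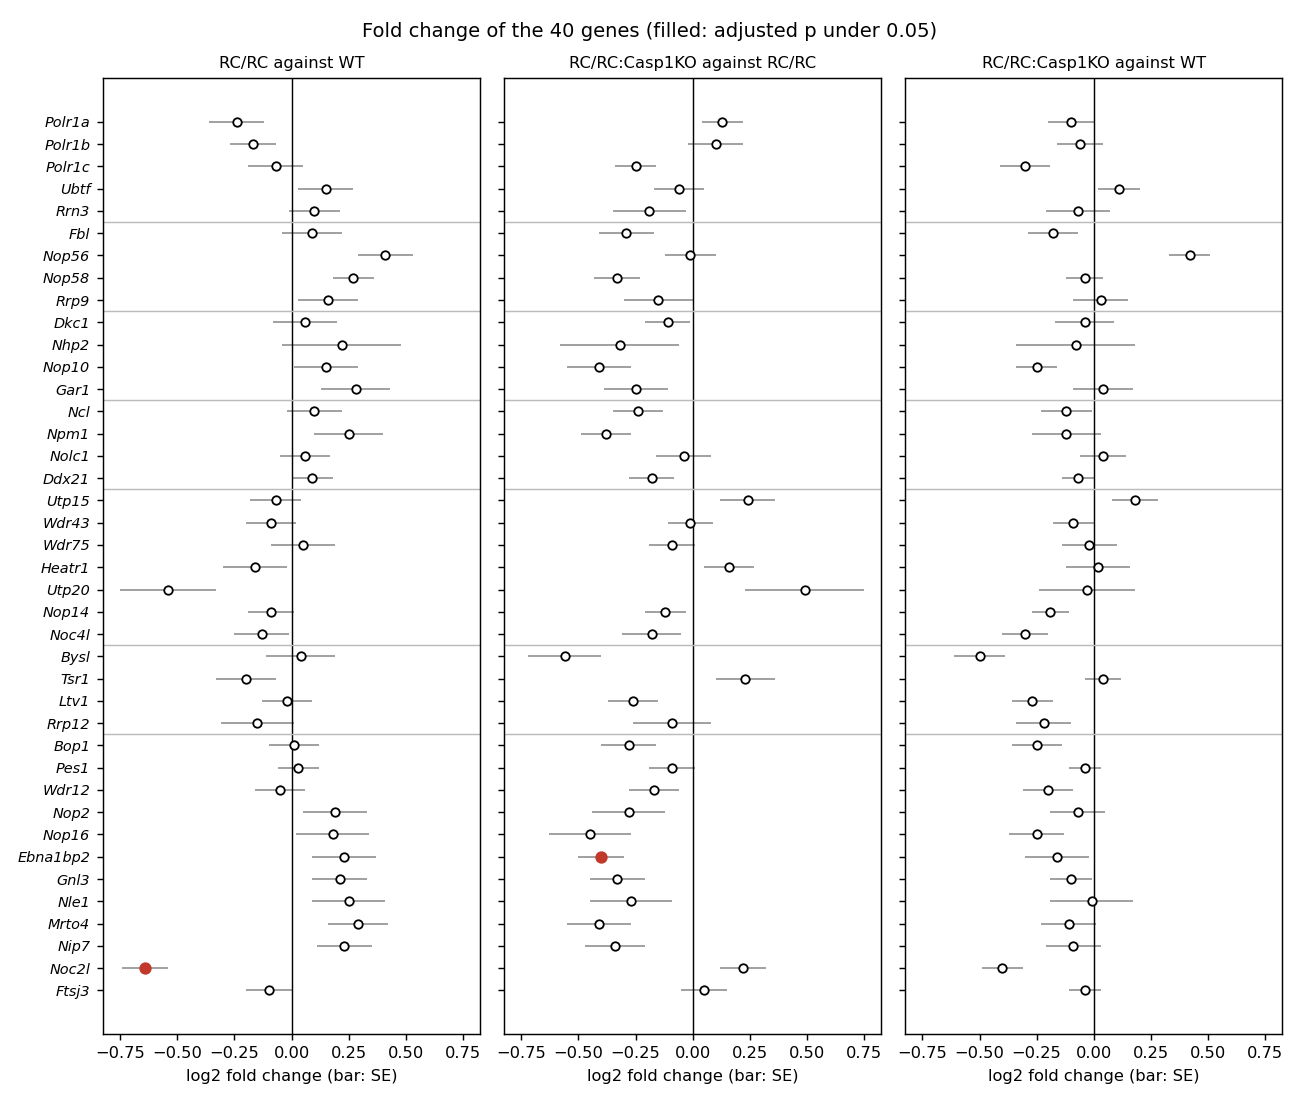
Log2 fold change (points) with SE (bars) of the 40 genes, grouped by role, in the 3 comparisons, each from 4 mice against 4. Filled points, Noc2l in RC/RC against WT and Ebna1bp2 in RC/RC:Casp1KO against RC/RC, had an adjusted p under 0.05.

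Noc2l gave the firmest difference. It encodes a nucleolar partner of the NOC proteins that accompanies 60S precursors, and is also known as an inhibitor of histone acetylation that binds p53. Noc2l (ENSMUSG00000095567, chr4:156236010-156247616, mm10) stood at 34.6, 33.5, 39.1 and 34.3 CPM in WT, at 21.3, 22.7, 23.6 and 23.6 CPM in RC/RC, and at 29.4, 25.5, 27.5 and 24.4 CPM in RC/RC:Casp1KO. The 3 groups did not overlap: RC/RC was lowest, WT highest, and RC/RC:Casp1KO lay between them. In RC/RC against WT it fell by 0.64 ± 0.10 (SE) on the log2 scale (edgeR adjusted p = 0.00341), and it was called in all 8 other settings and all 8 fits without 1 mouse, with an adjusted p of at most 0.0125. The log2 fold change in RC/RC:Casp1KO against RC/RC was 0.22 ± 0.10 (edgeR adjusted p = 0.17), and against WT it was -0.40 ± 0.09 (edgeR adjusted p = 0.0602), a decrease that passed under 3 of the other 8 settings. Its only overlapping neighbour, Samd11 on the opposite strand, averaged 0.101 CPM.

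Ebna1bp2 encodes a nucleolar scaffold of early 60S assembly, the counterpart of yeast Ebp2. Ebna1bp2 (ENSMUSG00000028729, chr4:118620799-118627776) stood at 43.8, 39.4, 29.7 and 30.0 CPM in WT, at 38.5, 46.2, 43.3 and 39.6 CPM in RC/RC, and at 32.7, 30.1, 34.9 and 30.0 CPM in RC/RC:Casp1KO. Every RC/RC mouse was above every RC/RC:Casp1KO mouse, while the WT mice spread over the range of both. It fell by 0.40 ± 0.10 (SE) on the log2 scale in RC/RC:Casp1KO against RC/RC (edgeR adjusted p = 0.0367). This call passed in 4 of 8 other settings and in 2 of 8 fits without 1 mouse, with an adjusted p of 0.00944 to 0.11.

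The other members of 60S assembly did not pass the test. Of the 12 genes, 9 had a log2 fold change above 0 in RC/RC against WT, with a median of 0.19 that became 0.04 once the gene length trend was removed. In RC/RC:Casp1KO against RC/RC 10 were below 0, with a median of -0.28, or -0.24 without the trend. Mrto4, whose product holds the place of the ribosomal stalk base on the 60S precursor, stood at 17.9, 17.8, 15.4 and 15.7 CPM in WT, at 16.6, 23.5, 20.7 and 20.9 CPM in RC/RC, and at 15.4, 13.9, 18.5 and 14.2 CPM in RC/RC:Casp1KO. RC/RC 1 lay within the other groups and the remaining RC/RC mice above them all. Its log2 fold change was 0.29 ± 0.13 in RC/RC against WT (edgeR adjusted p = 0.168) and -0.41 ± 0.14 in RC/RC:Casp1KO against RC/RC (edgeR adjusted p = 0.0891), and these became 0.07 and -0.26 without the length trend. Nop16, a nucleolar 60S factor, stood at 28.0, 28.2, 24.8 and 23.3 CPM in WT, at 21.0, 32.6, 34.4 and 30.8 CPM in RC/RC, and at 21.5, 19.8, 26.7 and 19.7 CPM in RC/RC:Casp1KO. Here too RC/RC 1 was among the low mice, and the log2 fold change in RC/RC:Casp1KO against RC/RC was -0.45 ± 0.18 (edgeR adjusted p = 0.118).

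Gnl3, which encodes the GTPase nucleostemin, had a log2 fold change of -0.33 ± 0.12 in RC/RC:Casp1KO against RC/RC (edgeR adjusted p = 0.111), and Nip7, a factor for both subunits, -0.34 ± 0.13 (edgeR adjusted p = 0.112). Bop1, Pes1 and Wdr12 encode the PeBoW complex, whose parts act together in processing the 60S ribosomal RNAs. Bop1 averaged 34.9, 35.3 and 29.2 CPM in WT, RC/RC and RC/RC:Casp1KO, and its log2 fold change in RC/RC:Casp1KO against RC/RC was -0.28 ± 0.12 (edgeR adjusted p = 0.142). Pes1 was steadier, at 41.5, 42.4 and 40.2 CPM, and Wdr12 stood at 16.7, 16.2 and 14.5 CPM in the same order of groups. Nop2, an RNA methyltransferase, had means of 29.6, 33.8 and 28.0 CPM, and Ftsj3, a methyltransferase of the same pathway, means of 36.1, 33.7 and 35.2 CPM. Nle1, a 60S factor, was the gene with the fewest reads of the 40, 75 to 157 per mouse.

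The 4 genes of the box C/D and U3 particles all had a log2 fold change above 0 in RC/RC against WT (median 0.22) and below 0 in RC/RC:Casp1KO against RC/RC (median -0.22), and none was called by edgeR. Without the length trend the medians were 0.15 and -0.08. These proteins carry the small RNAs that guide methylation of ribosomal RNA. Nop56 stood at 22.6, 21.9, 26.4 and 21.6 CPM in WT, at 27.6, 34.8, 33.8 and 27.0 CPM in RC/RC, and at 31.3, 28.8, 32.7 and 30.6 CPM in RC/RC:Casp1KO. Every mouse with the RC/RC genotype was above every WT mouse, and the 2 RC/RC groups overlapped. Its log2 fold change was 0.41 ± 0.12 in RC/RC against WT (edgeR adjusted p = 0.0582) and 0.42 ± 0.09 in RC/RC:Casp1KO against WT (edgeR adjusted p = 0.0527), and it passed in 3 and 2 of the other 8 settings.

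Nop58, the partner of Nop56 in the same particles, was spread differently. It stood at 26.3, 24.6, 25.2 and 23.5 CPM in WT, at 28.9, 27.9, 30.9 and 32.5 CPM in RC/RC, and at 22.5, 24.4, 23.8 and 25.8 CPM in RC/RC:Casp1KO. All 4 RC/RC mice were above the mice of both other groups, which overlapped. Its log2 fold change was 0.27 ± 0.09 in RC/RC against WT (edgeR adjusted p = 0.0944) and -0.33 ± 0.10 in RC/RC:Casp1KO against RC/RC (edgeR adjusted p = 0.057). Fbl, which encodes the methyltransferase fibrillarin, had means of 37.3, 39.6 and 32.7 CPM in WT, RC/RC and RC/RC:Casp1KO. Rrp9, a U3-specific protein, had means of 13.6, 15.2 and 13.8 CPM. It overlaps 987 bases of Parp3 on the opposite strand, a gene at 31.9 CPM on average, and the strand setting of the counting is not given.

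The plot of CPM by mouse shows the genes with the clearest separations beside 2 with wide spread. Bysl, needed late in 40S maturation, stood at 21.5, 20.4, 18.9 and 17.3 CPM in WT, at 14.9, 19.8, 23.8 and 22.04 CPM in RC/RC, and at 14.9, 13.1, 14.7 and 12.4 CPM in RC/RC:Casp1KO. All RC/RC:Casp1KO mice were below the WT mice, and RC/RC 1 all but touched the highest of them. Its log2 fold change was -0.56 ± 0.16 in RC/RC:Casp1KO against RC/RC (edgeR adjusted p = 0.052) and -0.50 ± 0.11 against WT (edgeR adjusted p = 0.0535). The end of Bysl overlaps 361 bases of Ccnd3 on the opposite strand, a gene at 78.8 CPM on average, and the counting is not stated to use strand, so reads there cannot be told apart.

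**Figure D4:**
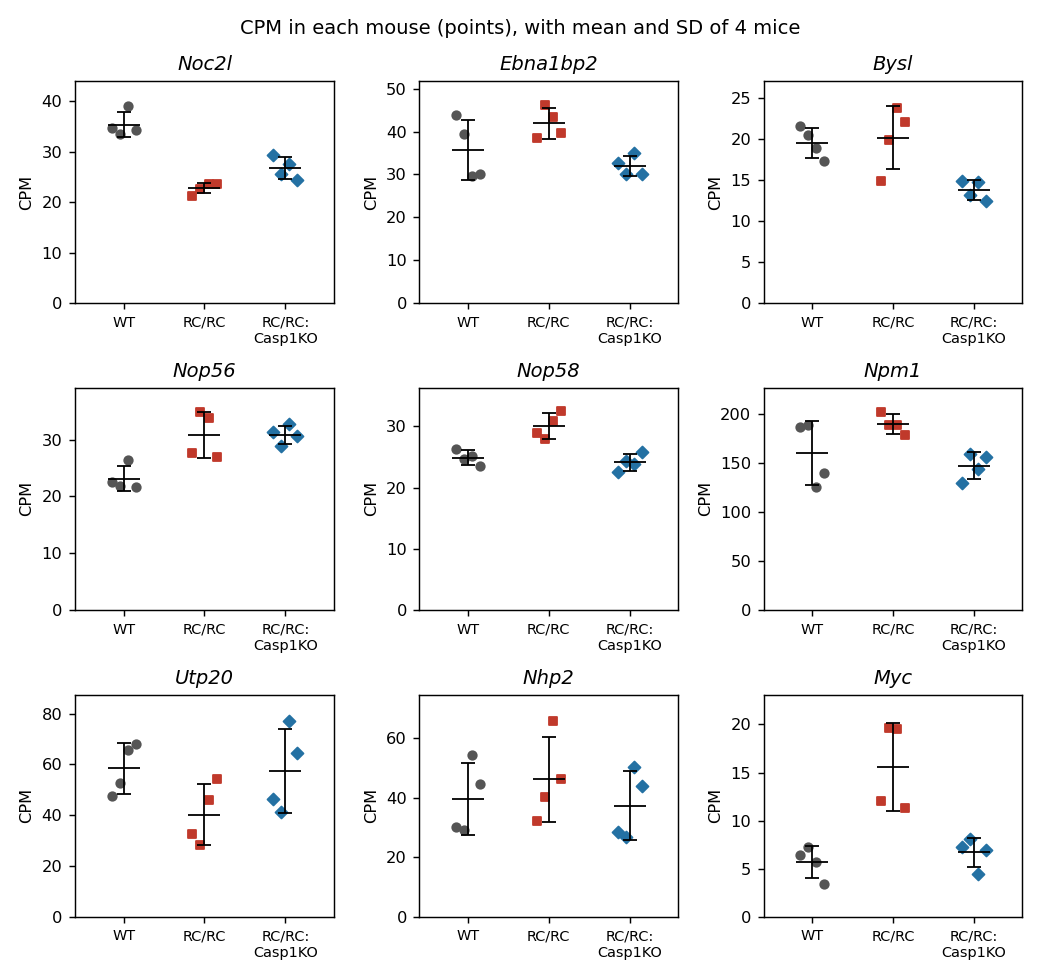
CPM in each of 12 mice (points), with the mean and SD of the 4 mice of each group (black), for 8 of the 40 genes and Myc, each panel starting at 0. Noc2l is lowest in RC/RC, Nop56 is low in WT, Bysl is low in RC/RC:Casp1KO, and Nop58, Npm1 and Myc are highest on average in RC/RC.

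Ltv1, a factor for export of the 40S precursor, had means of 20.1, 19.7 and 16.6 CPM in WT, RC/RC and RC/RC:Casp1KO, and a log2 fold change of -0.27 ± 0.09 in RC/RC:Casp1KO against WT (edgeR adjusted p = 0.139). Tsr1, a GTPase-like factor that caps the 40S precursor, stood at 16.6, 17.5, 18.1 and 16.7 CPM in WT, at 15.6, 12.5, 13.9 and 17.7 CPM in RC/RC, and at 16.7, 18.3, 18.3 and 17.4 CPM in RC/RC:Casp1KO. RC/RC 4 lay within the other groups while the remaining 3 RC/RC mice were lower than all of them, and the log2 fold change in RC/RC:Casp1KO against RC/RC was 0.23 ± 0.13 (edgeR adjusted p = 0.255). Tsr1 overlaps 2984 bases of Srr on the opposite strand, which averaged 49.0 CPM. Rrp12, an export factor, had means of 12.1, 11.0 and 10.4 CPM.

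Of the 7 genes of the small subunit processome, 6 had a log2 fold change below 0 in RC/RC against WT, with a median of -0.09. In the same comparison 3 of the 4 late 40S genes were below 0, also with a median of -0.09, and no difference between roles was tested. Both medians were 0.0 with libraries scaled by their total alone, where that of all genes was 0.08. Without the length trend they were -0.15 for the processome and -0.18 for late 40S, where that of all genes was -0.12. For the processome, in RC/RC:Casp1KO against RC/RC 3 were above 0 and 4 below, with a median of -0.01 that became 0.04 with libraries scaled by their total alone. None was called by edgeR or by DESeq2 in any of the 3 comparisons, and at an unadjusted p under 0.05 the 7 genes gave 1 lower in RC/RC against WT (11.97% of all genes), 0 in RC/RC:Casp1KO against RC/RC (15.3% higher and 16.4% lower) and 2 lower in RC/RC:Casp1KO against WT (9.99%). Utp20, a very large scaffold protein of the processome, stood at 47.6, 52.5, 65.8 and 67.9 CPM in WT, at 32.5, 28.2, 46.0 and 54.1 CPM in RC/RC, and at 46.2, 41.4, 77.1 and 64.5 CPM in RC/RC:Casp1KO. The spread within each group was wide and all 3 groups overlapped as wholes. In every group mice 1 and 2 lay below mice 3 and 4. Within mice 1 and 2, and again within mice 3 and 4, the RC/RC values were below those of both other groups. This was noticed after the values were seen, the labels do not say what these mice share, and the fits hold no term for the split, so the differences within these pairs of mice were not tested. The log2 fold change of Utp20 was -0.54 ± 0.21 in RC/RC against WT (edgeR adjusted p = 0.13) and 0.49 ± 0.26 in RC/RC:Casp1KO against RC/RC (edgeR adjusted p = 0.217). The latter was 0.23 without the length trend and 0.31 without RC/RC:Casp1KO 3.

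Utp15, of the UTP-A subcomplex that binds the start of the precursor, stood at 18.2, 17.7, 17.7 and 17.4 CPM in WT, at 18.5, 14.6, 16.9 and 17.6 CPM in RC/RC, and at 18.9, 21.7, 17.2 and 22.4 CPM in RC/RC:Casp1KO. RC/RC:Casp1KO 3 lay within the RC/RC range and the remaining 3 above it, with a log2 fold change of 0.24 ± 0.12 (edgeR adjusted p = 0.218). Heatr1, Wdr43 and Wdr75, of the same subcomplex, differed between group means by less than 3 CPM each. Noc4l and Nop14, which act together in 40S assembly, had means of 13.9 and 19.6 CPM in WT and of 11.3 and 17.2 CPM in RC/RC:Casp1KO. All RC/RC:Casp1KO mice were below all WT mice for both genes, with log2 fold changes of -0.30 ± 0.10 (edgeR adjusted p = 0.16) and -0.19 ± 0.08 (edgeR adjusted p = 0.201).

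The abundant nucleolar proteins and the H/ACA particles followed the box C/D genes in sign. All 4 genes of each group were above 0 in RC/RC against WT, with medians of 0.10 and 0.18, and below 0 in RC/RC:Casp1KO against RC/RC, with medians of -0.21 and -0.29. With the length trend removed, the H/ACA medians became -0.03 and -0.14, and those of the abundant nucleolar proteins 0.06 and -0.26. With libraries scaled by their total alone, the RC/RC against WT medians were 0.27 for H/ACA and 0.19 for the abundant nucleolar proteins. That of all genes was then 0.08. Npm1 stood at 187, 189, 125 and 139.6 CPM in WT, at 202, 189, 189 and 178 CPM in RC/RC, and at 129, 159, 144 and 156 CPM in RC/RC:Casp1KO. Every RC/RC mouse was above every RC/RC:Casp1KO mouse, and WT mice lay in both ranges. The log2 fold change of Npm1 in RC/RC:Casp1KO against RC/RC was -0.38 ± 0.11 (edgeR adjusted p = 0.0512), and DESeq2 called it. Without the length trend it was -0.25.

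Ncl, which encodes nucleolin, a nucleolar RNA-binding protein, averaged 279, 299 and 256 CPM in WT, RC/RC and RC/RC:Casp1KO, with a log2 fold change of -0.24 ± 0.11 in the last group against RC/RC (edgeR adjusted p = 0.186). Nolc1, a chaperone of snoRNPs, and Ddx21, an RNA helicase, had means between 36.7 and 38.4 CPM and between 53.8 and 60.4 CPM. Nop10 stood at 66.9, 65.9, 56.4 and 57.05 CPM in WT, at 54.7, 76.0, 81.2 and 60.9 CPM in RC/RC, and at 53.1, 48.8, 56.8 and 48.6 CPM in RC/RC:Casp1KO. RC/RC 1 was again within the range of the last group, and the log2 fold change was -0.41 ± 0.14 against RC/RC (edgeR adjusted p = 0.0844), or -0.25 without the length trend.

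Nhp2 varied more between mice of one group than between groups. It stood at 30.3, 29.2, 54.5 and 44.8 CPM in WT, at 32.3, 40.2, 65.9 and 46.3 CPM in RC/RC, and at 28.4, 26.9, 50.3 and 44.0 CPM in RC/RC:Casp1KO. The 2 lower mice of each group were the same as for Utp20, a likeness noticed after the values were seen. Gar1, an H/ACA core protein, stood at 11.5, 13.04, 10.8 and 9.89 CPM in WT, at 12.96, 16.3, 14.1 and 11.6 CPM in RC/RC, and at 10.8, 10.4, 12.9 and 12.3 CPM in RC/RC:Casp1KO. Its groups overlapped in each comparison, and its log2 fold change in RC/RC against WT was 0.28 ± 0.15 (edgeR adjusted p = 0.24), or 0.06 without the length trend and 0.16 without RC/RC 2. Dkc1, the pseudouridine synthase of the particles, had means of 18.5, 19.3 and 17.9 CPM.

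Of RNA polymerase I and its factors, none of 5 genes was called in a comparison by edgeR or DESeq2. Polr1c alone had an unadjusted p under 0.05, in 2 of the 3 comparisons. It was lower in RC/RC:Casp1KO against RC/RC (20% of the 5, against 16.4% of all genes) and against WT (20%, against 9.99%). Polr1a, the largest subunit, stood at 23.3, 28.1, 31.3 and 27.9 CPM in WT, at 23.4, 21.3, 24.3 and 24.6 CPM in RC/RC, and at 26.7, 24.8, 24.8 and 26.6 CPM in RC/RC:Casp1KO. WT 1 lay within RC/RC and the other WT mice above it, and the log2 fold change in RC/RC against WT was -0.24 ± 0.12 (edgeR adjusted p = 0.196), or -0.15 with libraries scaled by their total alone. Polr1c, a subunit shared with RNA polymerase III, stood at 46.7, 41.3, 33.6 and 34.7 CPM in WT, at 36.1, 36.3, 40.05 and 36.9 CPM in RC/RC, and at 32.5, 31.5, 32.1 and 30.4 CPM in RC/RC:Casp1KO. All RC/RC:Casp1KO mice were below all others, with log2 fold changes of -0.25 ± 0.09 against RC/RC (edgeR adjusted p = 0.085) and -0.30 ± 0.11 against WT (edgeR adjusted p = 0.172). Without the length trend the first was -0.11. Polr1b, the second largest subunit, had means of 24.8, 22.1 and 23.8 CPM, Ubtf, the promoter-binding factor UBF, of 135, 149 and 145 CPM, and Rrn3, the initiation factor TIF-IA, of 31.1, 33.4 and 29.5 CPM.

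Other genes of the pathway were taken from lists of the wider Pol I machinery, further small and large subunit factors, and the RNA exosome, which trims precursor RNAs. All 129 of them in the table were tested. In RC/RC against WT, edgeR called 1 lower, Ddx47, a helicase of small subunit assembly, which fell by 0.29 ± 0.08 (SE) on the log2 scale (edgeR adjusted p = 0.0465), and 0 higher. At an unadjusted p under 0.05, 10 were higher (7.75%, against 17.3% of all genes) and 9 lower (6.98%, against 11.97%), and DESeq2 called 0 higher (10.9% of all genes) and 3 lower (2.33%, against 5.59%). In RC/RC:Casp1KO against RC/RC, 7 were called lower (5.43%, against 4.41% of all genes) and 3 higher (2.33%, against 7.23%) by edgeR. The median log2 fold change was -0.13 over the list and -0.03 over all genes, or -0.08 and 0.02 with libraries scaled by their total alone. DESeq2 called 15 lower (11.6%, against 8.12%) and 4 higher (3.1%, against 10%). Without adjustment, 37 were lower (28.7%, against 16.4%) and 12 higher (9.3%, against 15.3%) at p under 0.05. By each of these counts the share of the list was above that of all genes for lower and below it for higher, and no test set the list against other genes. Those lower were Nsa2 (-0.37 ± 0.08), Eif6 (-0.41 ± 0.10), Rsl24d1 (-0.50 ± 0.13) and Rrp15 (-0.47 ± 0.13) of the large subunit, Polr1d (-0.48 ± 0.12) of the polymerase, Tcof1 (-0.39 ± 0.10), which encodes treacle, and Nhp2l1 (-0.44 ± 0.11), a protein that binds the U3 RNA. Their adjusted p-values from edgeR lay between 0.0264 and 0.0445. The 3 called higher were Mdn1 (0.57 ± 0.14), a giant ATPase that strips factors from the 60S precursor, the helicase Ddx55 (0.50 ± 0.13) and the RNA acetyltransferase Nat10 (0.46 ± 0.10). In RC/RC:Casp1KO against WT edgeR called none of the 129. At an unadjusted p under 0.05, 4 were higher (3.1%, against 11.8% of all genes) and 20 lower (15.5%, against 9.99%), and DESeq2 called 1 higher (0.775%, against 4.44%) and 5 lower (3.88%, against 3.28%).

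The proteins of the finished subunits were set beside the factors that build them. Of 83 cytosolic ribosomal protein genes tested in RC/RC:Casp1KO against RC/RC, edgeR called 25 lower (30.1%, against 4.41% of all genes) and 0 higher. There were 79 lower (95.2%, against 16.4%) and 0 higher (15.3% of all genes) at an unadjusted p under 0.05, and DESeq2 called 69 lower (82.1% of the 84 it tested, against 8.12%) and 0 higher (10%). The median log2 fold change was -0.55, or -0.39 without the length trend, where the 40 biogenesis genes had -0.18 and -0.14. In RC/RC against WT the median of the ribosomal protein genes was 0.41, or 0.14 without the length trend, and edgeR called none. At an unadjusted p under 0.05, 35 were higher (42.2%, against 17.3% of all genes) and 1 lower (1.2%, against 11.97%), and DESeq2 called 4 higher (4.76%, against 10.9%) and 0 lower. Whether the lists differ from each other was not tested. Averaged over the ribosomal protein genes, the log2 CPM by mouse was 8.07, 7.91, 7.51 and 7.47 in WT, 7.88, 8.41, 8.36 and 7.90 in RC/RC, and 7.69, 7.58, 7.78 and 7.51 in RC/RC:Casp1KO, so that RC/RC 1 and RC/RC 4 lay within WT. RC/RC 2 and RC/RC 3, the highest for these genes, also had the highest shares of mitochondrial reads, 12.1% and 11.6%, where RC/RC 1 and RC/RC 4 had 8.68% and 9.37%. The share was 9.37% to 10.6% in WT and 7.78% to 10.4% in RC/RC:Casp1KO, and its part in these values was not tested.

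Myc, whose product is known to drive many biogenesis genes, stood at 6.43, 7.24, 5.73 and 3.44 CPM in WT, at 12.04, 19.6, 19.5 and 11.3 CPM in RC/RC, and at 7.26, 8.10, 4.49 and 6.90 CPM in RC/RC:Casp1KO. All RC/RC mice were above all others, and the other 2 groups overlapped. Myc rose by 1.45 ± 0.27 (SE) on the log2 scale in RC/RC against WT (edgeR adjusted p = 0.00899) and fell by 1.23 ± 0.25 in RC/RC:Casp1KO against RC/RC (edgeR adjusted p = 0.0191). The 40 genes had medians of 0.06 and -0.18 in the same fits.

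Gene length moved with the fold changes. Over the 40 genes, Spearman's rho between the length given in the table and the log2 fold change was -0.38 in RC/RC against WT, 0.53 in RC/RC:Casp1KO against RC/RC and 0.29 in RC/RC:Casp1KO against WT, and over all genes tested it was -0.19, 0.30 and 0.15. DESeq2's fold changes gave the same 3 values over the genes that the edgeR filter kept, and -0.02, 0.03 and 0.01 once genes of lower count were included. These values describe the fits, since the genes share the same libraries. The 20 shorter genes had a median of -0.28 in RC/RC:Casp1KO against RC/RC and the 20 longer ones -0.05. After removal of a smooth trend with length, rho over the 40 genes was 0.06, 0.10 and 0.01, Noc2l remained called in RC/RC against WT, and Ncl (-0.48) and Nop58 (-0.62) were called lower in RC/RC:Casp1KO against RC/RC. The log2 fold change of Ebna1bp2 there was -0.39 (edgeR adjusted p = 0.0519), close to its -0.40 before. Ncl and Nop58 had been at -0.24 and -0.33 in RC/RC:Casp1KO against RC/RC and were not called by edgeR. Their deposited lengths are 8202 and 9507 bases and were not checked against the transcripts present. The size of their changes without the trend, and so these calls, depends on those lengths. The median length was 2995.5 bases for the 40 genes and 3014 bases for all genes tested in that comparison.

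**Figure D5:**
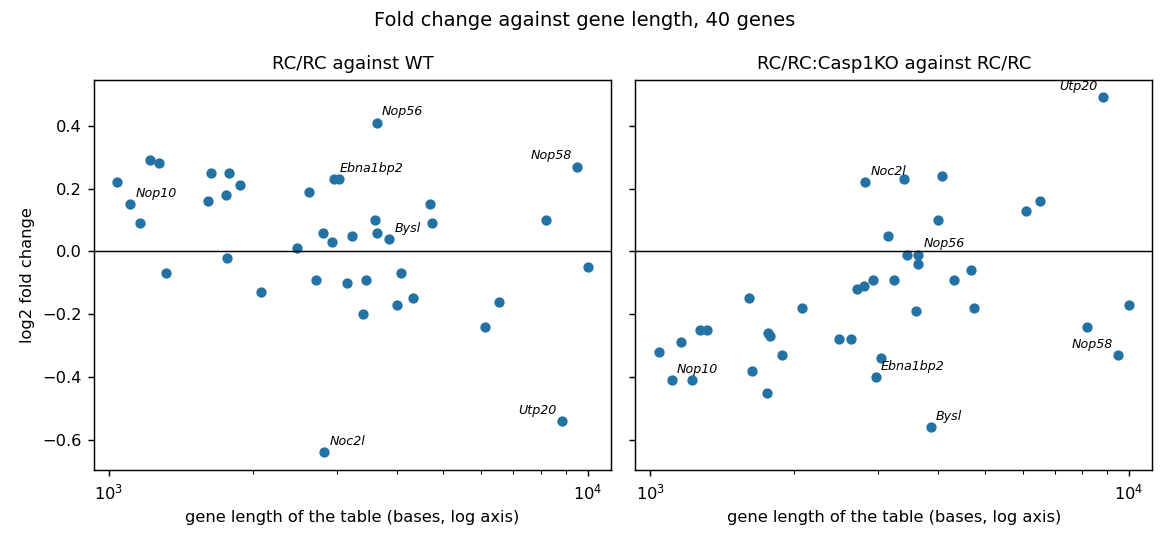
Log2 fold change against gene length (bases, log axis) for the 40 genes, in RC/RC against WT (left) and RC/RC:Casp1KO against RC/RC (right), 1 point per gene. Short genes lie mostly above 0 on the left and below 0 on the right, with Spearman's rho of -0.38 and 0.53, and Noc2l, Bysl and Nop58 lie away from the trend.

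Markers of several cell types moved in the same comparisons, and no marker in the lists was at 0 in any mouse. Of 8 fibroblast markers, 8 were called higher in RC/RC against WT and 6 lower in RC/RC:Casp1KO against RC/RC. Their summed level was 359, 265, 304 and 326 CPM for the WT mice, 1244, 2107, 1180.3 and 888 CPM for RC/RC, and 362, 501, 347 and 762 CPM in RC/RC:Casp1KO. Per length, Acta2 was the highest of them in WT (24.4 FPKM) and Dcn in RC/RC (93.3 FPKM) and RC/RC:Casp1KO (35.0 FPKM). Of 11 leukocyte markers in the table, 10 were called higher in RC/RC against WT and 2 (C1qa and C1qb) lower in RC/RC:Casp1KO against RC/RC, and the sums were 524, 395, 368 and 359.7 CPM, 1205, 1106, 1035 and 886 CPM, and 748, 715, 659 and 1205 CPM in the same order of groups, with Cd74 the highest in FPKM in each group. The median log2 fold change in RC/RC against WT was 2.27 over the fibroblast and 1.68 over the leukocyte markers.

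Of 12 proliferation markers, 8 were called higher in RC/RC against WT and 1 (Pcna) lower in RC/RC:Casp1KO against RC/RC. Their sums were 124, 124, 108 and 102 CPM for the WT mice, 211, 193, 169 and 155 CPM for RC/RC, and 138, 150, 99.6 and 145 CPM in RC/RC:Casp1KO, with Pcna the highest in FPKM in each group. Markers of injured tubule gave 6 of 8 higher in RC/RC against WT and 2 lower (Krt8 and Krt19) in RC/RC:Casp1KO against RC/RC, with Spp1 the highest in FPKM in each group and sums of 2266, 1715, 670.4 and 832 CPM, 5898, 3895, 2515 and 2406 CPM, and 1495, 1971, 825 and 2299 CPM. Of 10 proximal tubule markers, 2 (Slc5a2 and Cubn) were called lower in RC/RC against WT and 2 (Lrp2 and Cubn) higher in RC/RC:Casp1KO against RC/RC, with Miox the highest in FPKM in WT and RC/RC and Slc34a1 in RC/RC:Casp1KO, and sums of 12648, 14417, 15528 and 17297 CPM, 8365, 6493, 9983 and 13523 CPM, and 14003, 13443, 16184 and 13225 CPM. All 5 erythrocyte genes were called lower in RC/RC against WT, from sums of 900.1, 822, 649 and 477 CPM in WT to 125, 269, 261 and 259 CPM in RC/RC. The RC/RC:Casp1KO sums were 348, 258, 394 and 217 CPM, and 4 of the 5 were called lower against WT. Of 4 loop of Henle and distal tubule markers, 2 (Calb1 and Slc12a3) were called lower in RC/RC against WT. Their list had a median log2 fold change of -1.32, and Slc12a3 was called higher in RC/RC:Casp1KO against RC/RC. Of 7 podocyte and endothelium markers, Nphs1 was called lower in RC/RC against WT. Of 7 collecting duct markers, 0 were called by edgeR in any of the comparisons. Their median log2 fold change was 0.34 in RC/RC against WT and -0.13 in RC/RC:Casp1KO against RC/RC. Their sums ranged from 471 to 936 CPM in WT, from 847 to 1254 CPM in RC/RC and from 709 to 954 CPM in RC/RC:Casp1KO. The part of these cell types in the values of the 40 genes was not tested.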

How the data were processed

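Sequencing and primary analysis were done by a commercial service, and the submitters' processing notes name CASAVA 1.8, STAR and the mm10 build; the counting tool, annotation and strand setting are not given in the sources used here. The deposited table holds raw read counts per gene for each mouse, which were used. It also holds FPKM per mouse and per group, normalized signal means per group from DESeq2, and the authors' own log2 fold changes and p-values, none of which were used. Gene length and coordinates are those of the table. Columns are tied to groups by name, and 12 columns of values per mouse (FPKM) were not used.

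CPM was computed with TMM factors of all 12 libraries, and FPKM from the counts, the gene length and the reads counted. Each pair of groups (4 mice against 4) was fitted with edgeR 4.0.16 in R 4.3.3 (filterByExpr, glmQLFit, glmQLFTest, Benjamini-Hochberg over all genes tested), after tests on simulated data. DESeq2 1.42.0, other scaling factors, other filters, all 12 mice in one fit, a gene length trend (chosen after seeing the data) and leaving out each mouse were the alternatives. No 2 mice of a group had counts equal within sampling noise (lowest chi-square per degree of freedom 15.7), so each mouse counted once. Near copies were sought with BLAST 2.17.0 at 95% identity over 300 bases; those in the table were all at 0.324 CPM or less.

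Given by mouse were 14 genes: those called in a comparison, the 3 highest in FPKM, and the 3 with the largest increase and decrease in RC/RC against WT and in RC/RC:Casp1KO against RC/RC. Fold changes were printed only for pairs of gene and comparison named by this rule or with an unadjusted p under 0.1, and values by mouse of Nop58 and Polr1c were added after theirs were seen. The 40 genes and the other lists were chosen with earlier results of these data known. With 4 mice a group, small shifts can be missed. Promoter sequences are from RefSeq (GRCm38.p6).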

Additional observations from a re-analysis of the deposited data

Results flagged for a closer look

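In 3 of 120 groups of 4 mice (40 genes in 3 groups), 1 mouse stood away from the other 3 by more than Dixon's critical ratio of gap to range for 4 samples, where chance marks about 1 in 20 groups. Ubtf was at 171 CPM in 1 RC/RC mouse with the nearest at 144 CPM (ratio 0.84), and at 152 CPM in 1 RC/RC:Casp1KO mouse with the nearest at 142 CPM (ratio 0.91). Ncl was at 226 CPM in 1 RC/RC:Casp1KO mouse with the nearest at 264 CPM (ratio 0.91).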

How the results depend on the processing

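Of 640 repeats of 40 fold changes (pairs of gene and comparison eligible for print), 601 kept their direction and side of the threshold, 29 passed it and 10 no longer did, and none changed direction. With DESeq2, 1 of the 40 genes was called higher in RC/RC against WT (3018 genes in all), 4 lower in RC/RC:Casp1KO against RC/RC (3182) and, against WT, 1 higher and 2 lower (1390). With libraries scaled by their total alone the counts were 2 higher (10.7% of all genes), 0 lower (1.16%, 993 genes called in all) and 1 higher (1.83%), the medians 0.16 in RC/RC against WT and 0.04 in RC/RC:Casp1KO against WT, and the median of all genes in the latter moved from 0.01 to 0.14. With all 12 mice in 1 fit, 2 were higher in RC/RC against WT (11.3% of all genes), 2 lower in RC/RC:Casp1KO against RC/RC (5.64%) and 1 lower against WT (0.731%). With the length trend removed, 2 were lower in RC/RC:Casp1KO against RC/RC (4.01% of all genes), and 2 lower against WT (1.56%) with a median of -0.17, where that of all genes was -0.09. With no filter, 0 were lower in RC/RC:Casp1KO against RC/RC (2.15%), and with 10 counts in every mouse 167 genes were called in all in RC/RC:Casp1KO against WT. The cause of these differences was not tested. Leaving out 1 mouse gave 0 to 1 higher and 1 to 2 lower of the 40 genes in RC/RC against WT (1162 to 2440 genes in all), 0 to 8 lower in RC/RC:Casp1KO against RC/RC (438 to 2789) and 0 to 1 higher against WT (108 to 547), with medians of 0.02 to 0.09, -0.22 to -0.14 and -0.11 to -0.07. No paired analysis was possible because the columns carry no replicate numbers. Fits with a term for sex, which the columns do not name, were not run. Nor were fits with a term for the split of mice 1 and 2 from mice 3 and 4 seen for Utp20 and Nhp2. Among WT mice the split was not limited to those genes. Npm1, Ebna1bp2, Polr1c and the mean over the ribosomal protein genes were higher in WT 1 and WT 2 than in WT 3 and WT 4, and Heatr1 and Wdr75 were lower. Such a split widens the WT spread in the tests against WT, and its part in them was not tested.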
